A study of Mus musculus with 6 samples.

Results

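Sirtuins are enzymes that use NAD+ to remove acetyl and other acyl groups from lysine residues of histones, transcription factors and metabolic enzymes. The family was taken as the 7 mouse genes Sirt1 to Sirt7, found by symbol among the 55401 Ensembl gene IDs of the count table. Each symbol matched 1 ID, and all 7 were detected in every library and tested. RNA of whole mouse kidneys was sequenced in 3 libraries from mice with diabetic kidney disease (DKD) and 3 libraries from control mice. The labels name the tissue and the group and no strain, way of inducing diabetes, drug, age or sex, and leave unsaid whether the libraries come from different animals. A p-value here thus rests on the variation among 6 libraries, part of which may be technical. The study was designed to profile histone methyltransferases in the diabetic kidney, so the sirtuins are not the genes it was set up to test.

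Because the reaction consumes NAD+, sirtuin activity depends on the supply of this coenzyme as well as on the amount of enzyme, and RNA levels report on neither protein nor activity. SIRT1, SIRT6 and SIRT7 are mainly nuclear, SIRT2 is mainly cytosolic, and SIRT3, SIRT4 and SIRT5 are mitochondrial. In the kidney the proximal tubule is rich in mitochondria and relies on fatty acid oxidation, and SIRT1 and SIRT3 are among the sirtuins studied there and in podocytes. A whole-kidney library mixes all of these cells, so fewer cells of a type and less RNA per cell cannot be told apart.

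No sirtuin differed between DKD and control kidneys past the threshold, an adjusted p of 0.05 over all 19197 genes tested with edgeR's quasi-likelihood test; 0% of all genes did. Of the members, 6 had a lower fitted level in DKD kidneys and 1, Sirt6, had a higher one. Over all 19197 genes tested, 9138 had a lower fitted level and 10059 a higher one. Sirt3, Sirt4 and Sirt7 were lower at an unadjusted p under 0.05, which makes 3 of 7 members, where 7.05% of all genes tested were lower and 12.2% were higher by that rule. Sirt4 and Sirt7 were the 2 members whose DKD libraries all lay below all control libraries, against 11.5% of all genes lower and 13.8% higher without overlap. With 7 members, counts of 2 and 3 are described beside these shares and not tested against them.

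The libraries held 77417638, 71588579 and 77161106 counts in DKD replicates 1, 2 and 3, and between 64816622 and 72845799 counts in the 3 control libraries. DKD replicate 1 stood apart. In a principal component analysis the leading axis held 44.4% of the variance and separated DKD replicates 2 and 3 from all other libraries. The next axis held 21% and separated DKD replicate 1. The 13 listed hepatocyte markers summed to 4441 CPM (counts scaled to a common library total, with TMM factors) in DKD replicate 1, 302.5 and 407.2 CPM in the other DKD libraries, and 130.6 to 221.2 CPM in control kidneys. Albumin (Alb) alone reached 2321 CPM in that library. Results on sirtuins are therefore also given without it.

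The sequence just upstream of a RefSeq start (build GRCm38.p6) was taken for Sirt3, Sirt4 and Sirt7, the members with the smallest p-values. That of Sirt4 held none of the motifs searched and is not printed. Sequence is shown for Sirt3 and Sirt7, the 2 members that passed the threshold once DKD replicate 1 was left out. Each stretch is the part of the 250 bases before the start, nearest to it, that holds no exon of another gene. Both are given 5' to 3' on the minus strand, Sirt3 at chr7:140881870-140881967 with GC boxes (GGGCGG) in capitals, and Sirt7 at chr11:120625015-120625116 with an ETS site (CCGGAAG) and an NRF1 core (the reverse complement of GCATGCGC) in capitals. Sirt3 has 2 RefSeq starts, and the stretch shown belongs to the one whose upstream sequence is not all covered by exons of another gene; its other window was only searched for motifs.
Sirt3: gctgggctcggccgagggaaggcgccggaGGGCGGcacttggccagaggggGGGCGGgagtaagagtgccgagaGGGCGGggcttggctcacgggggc
Sirt7: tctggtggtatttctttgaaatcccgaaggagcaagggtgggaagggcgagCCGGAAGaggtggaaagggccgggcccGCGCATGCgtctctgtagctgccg

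Both stretches are short because exons of another gene lie close by, of Psmd13 next to Sirt3 and of Mafg next to Sirt7. Motifs were searched on both strands in windows of 300 bases (250 before and 50 after the start), of which the 7 sirtuins have 9, since Sirt3 and Sirt6 each have 2 RefSeq starts. A GC box was in 6 of the 9 sirtuin windows, with at least 1 for every member except Sirt4, and in 35.7% of all 32851 windows. An ETS site was in 3 of the 9 windows, of Sirt7 and of the other start of Sirt3 and 1 start of Sirt6, against 8.86% of all windows. The NRF1 core was in 2 of the 9, of Sirt6 and Sirt7, against 2.71% of all windows. An E-box (CACGTG) was in the window of Sirt1 only, against 7.15%, and a CCAAT box in 3 windows, of Sirt2, Sirt3 and Sirt5, against 37.4%. No sirtuin window held the FOXO site (GTAAACA) or a TATA box (TATAAA), which 3.65% and 13.6% of all windows held. These are matches of letters and not measured binding sites. No motif searched was present for all 6 members with a lower fitted level in DKD kidneys and absent for Sirt6.

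Sirt7, the nucleolar sirtuin that acts on ribosomal RNA transcription and histone H3, had the smallest p-value of the family. Its level was 59.9, 58.3 and 52.3 CPM in DKD replicates 1, 2 and 3, against 73.1, 73.0 and 70.3 CPM in control replicates 1, 2 and 3. The 3 DKD libraries all lay below the lowest control library, and the control libraries were close together. The means were 56.8 ± 4.0 CPM in DKD kidneys and 72.1 ± 1.6 CPM in control kidneys (SD, n = 3 each), a ratio of 0.788. The log2 difference was -0.34 ± 0.0872 (SE), with a 95% interval of -0.549 to -0.138. The edgeR p was 0.00535 before and 0.133 after adjustment over all genes, so it did not pass.

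Sirt1, a nuclear deacetylase of p53, FOXO factors and PGC-1alpha, had 27.7, 27.0 and 22.5 CPM in DKD replicates 1, 2 and 3, against 27.4, 28.7 and 29.9 CPM in control replicates 1, 2 and 3. The groups overlapped, with only DKD replicate 3 standing well below the control libraries. The log2 difference of Sirt1 was -0.16 ± 0.108 (SE; adjusted p = 0.457, edgeR), and its 95% interval ran from -0.409 to 0.0985.

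Sirt6, a chromatin deacetylase that takes part in DNA repair and represses glycolytic genes, had the lowest CPM of the family. It had 6.55, 7.45 and 8.24 CPM in DKD replicates 1, 2 and 3, against 6.71, 5.73 and 6.00 CPM in control replicates 1, 2 and 3. DKD replicates 2 and 3 were above every control library and DKD replicate 1 was not. The log2 difference of Sirt6 was 0.27 ± 0.167 (SE; 95% interval -0.122 to 0.663; adjusted p = 0.404, edgeR). Its lowest library held 378 counts, the fewest of any member, while the most were the 6337 counts of Sirt3.

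Sirt2, the cytosolic member best known as a tubulin deacetylase, had the smallest difference. It had 69.6, 67.0 and 65.8 CPM in DKD replicates 1, 2 and 3, against 78.6, 67.2 and 66.8 CPM in control replicates 1, 2 and 3. Control replicate 1 stood above the other 5 libraries, which lay close together. The log2 difference was -0.07 ± 0.0955 (SE; adjusted p = 0.709, edgeR), with a 95% interval of -0.296 to 0.154. Its sign turned to 0.0072 without control replicate 1 and to 0.08 when libraries were scaled by total counts alone, so no direction is given for Sirt2.

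**Figure D1:**
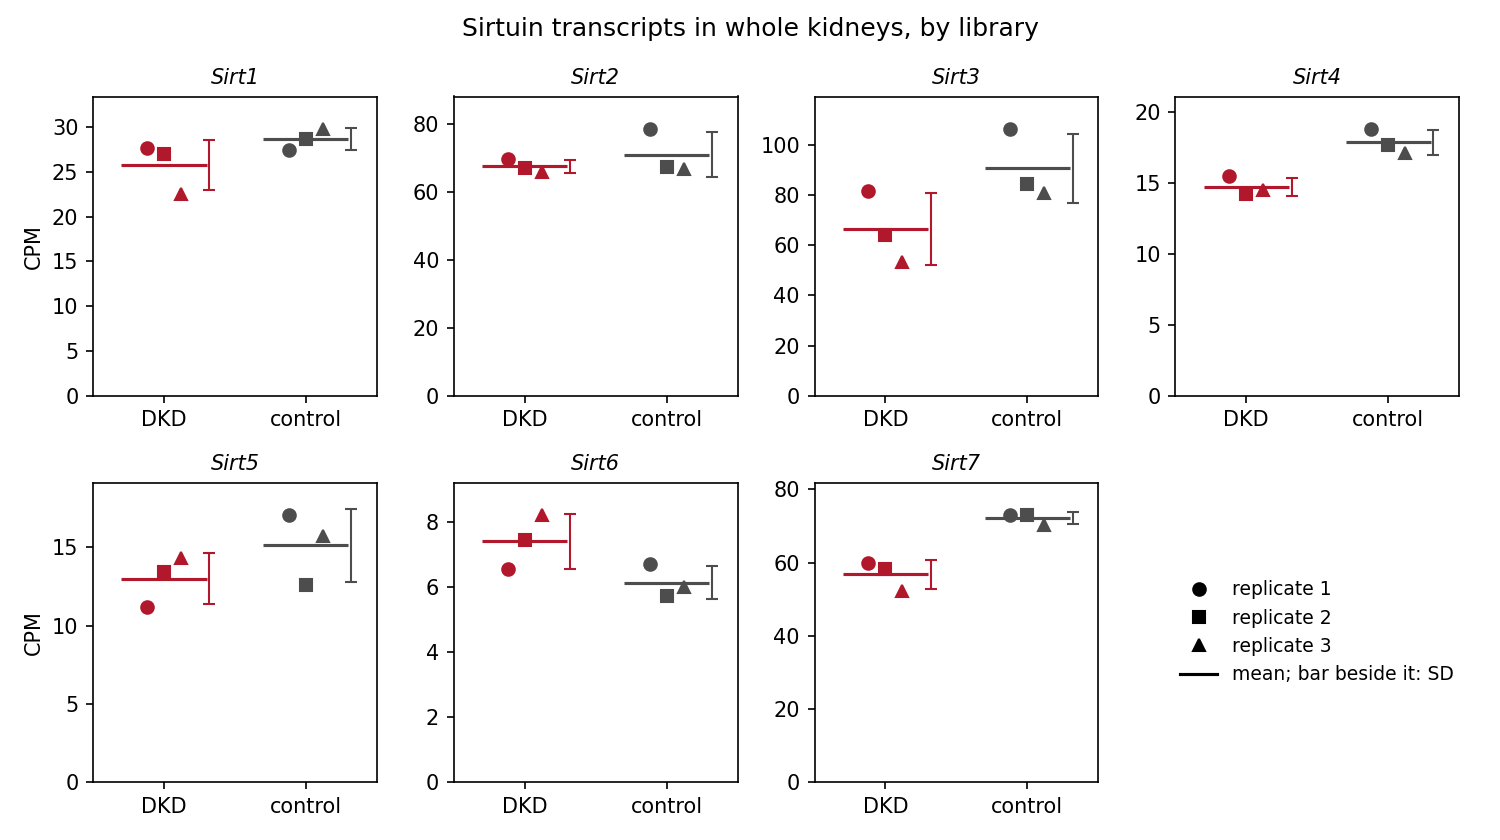
Level of each sirtuin in CPM on a linear axis from 0, one panel per gene; each point is a library, DKD to the left of control, the horizontal line is the group mean and the bar beside it the SD. The DKD points of Sirt4 and Sirt7 all lie below their control points, DKD replicate 1 of Sirt3 lies above control replicate 3, and Sirt6 is the member with the higher mean in DKD.

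Of the mitochondrial members, Sirt3, the main deacetylase of mitochondrial metabolic and antioxidant enzymes, had the widest spread. It had 81.9, 64.2 and 53.5 CPM in DKD replicates 1, 2 and 3, against 106.6, 84.6 and 80.9 CPM in control replicates 1, 2 and 3. DKD replicates 2 and 3 were below every control library, and DKD replicate 1 was just above control replicate 3. The means were 66.5 ± 14.3 CPM in DKD kidneys and 90.7 ± 13.9 CPM in control kidneys (SD, n = 3 each), a ratio of 0.733. The log2 difference was -0.45 ± 0.18 (SE; 95% interval -0.871 to -0.0249). It was the largest fitted difference of the 7, with an edgeR p of 0.0407 before and 0.239 after adjustment.

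Sirt4, a mitochondrial lipoamidase and ADP-ribosyltransferase known to inhibit glutamate dehydrogenase, had 15.4, 14.2 and 14.5 CPM in DKD replicates 1, 2 and 3, against 18.8, 17.6 and 17.1 CPM in control replicates 1, 2 and 3. The groups did not overlap, and both were narrow, with means of 14.7 ± 0.641 CPM in DKD kidneys and 17.8 ± 0.888 CPM in control kidneys (SD, n = 3 each). The log2 difference of Sirt4 was -0.28 ± 0.106 (SE; 95% interval -0.528 to -0.0282), with an edgeR p of 0.0338 before and 0.223 after adjustment. Sirt5, which removes succinyl, malonyl and glutaryl groups, had 11.2, 13.4 and 14.3 CPM in DKD replicates 1, 2 and 3, against 17.1, 12.6 and 15.7 CPM in control replicates 1, 2 and 3. Its groups overlapped, and its log2 difference was -0.22 ± 0.164 (SE; 95% interval -0.605 to 0.167; adjusted p = 0.491, edgeR).

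Without DKD replicate 1, Sirt3 and Sirt7 passed the adjusted threshold. In that fit of 5 libraries, 5.84% of 19989 genes were lower in DKD past an adjusted p of 0.05 and 9.67% were higher, and 2 of the 7 sirtuins were lower. The log2 difference of Sirt3 was then -0.63 ± 0.154 (SE), with an edgeR adjusted p of 0.035. That of Sirt7 was -0.39 ± 0.0964 (SE), with an edgeR adjusted p of 0.0368. For the other members the log2 differences in that fit were -0.32 for Sirt4, -0.22 for Sirt1, -0.13 for Sirt5, -0.10 for Sirt2 and 0.34 for Sirt6, none past the threshold. Leaving out any other single library brought no sirtuin past it.

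Sirt3 and Sirt7 also passed in limma-voom with sample quality weights over all 6 libraries, which lets libraries that deviate more count less. The log2 difference was -0.48 for Sirt3 (adjusted p = 0.0391, limma-voom) and -0.35 for Sirt7 (adjusted p = 0.0234, limma-voom), in a fit where 7.78% of all genes were lower and 9.93% were higher past an adjusted p of 0.05. Both calls of the weighted fit were kept without DKD replicate 1, and Sirt7 alone passed without control replicate 1 (adjusted p = 0.0441, limma-voom). Neither passed in the weighted fit without DKD replicate 2, DKD replicate 3, control replicate 2 or control replicate 3, where the adjusted p of Sirt7 was 0.365, 0.377, 0.167 and 0.142. DESeq2 called no sirtuin, with 1.99% of all genes lower and 6.25% higher, and gave Sirt7 an adjusted p of 0.0688.

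**Figure D2:**
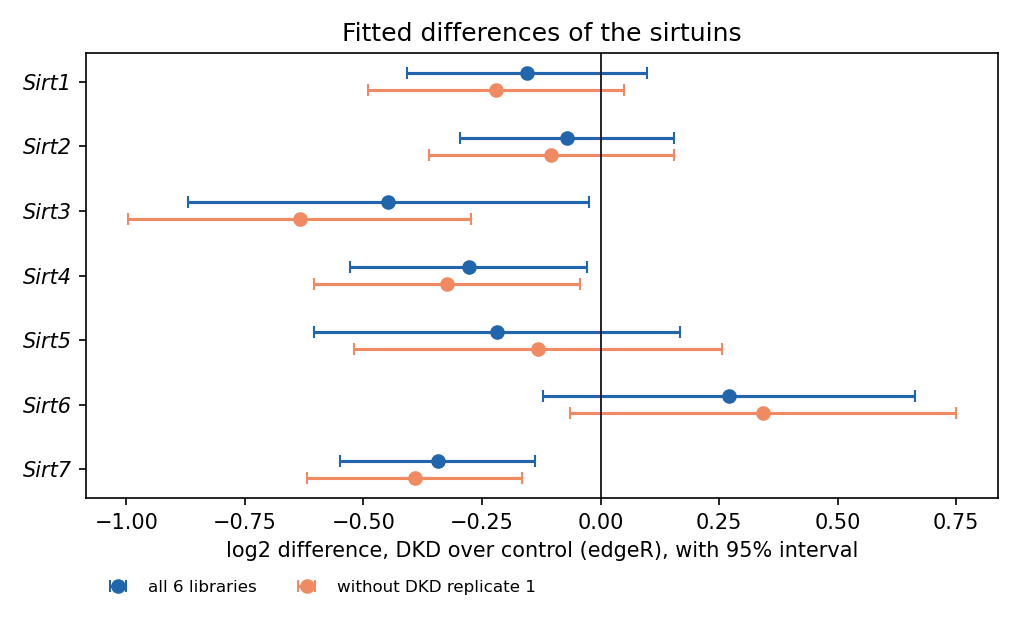
Log2 difference of each sirtuin, DKD over control, with its 95% interval from edgeR; the upper point of each gene uses all 6 libraries and the lower one leaves out DKD replicate 1. The intervals of Sirt3, Sirt4 and Sirt7 lie below 0 in both fits, while those of Sirt1, Sirt2, Sirt5 and Sirt6 cross 0 in both.

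In each DKD library, 6 of the 7 members were below their control mean and Sirt6 alone was above its own. In control replicates 2 and 3, too, 5 of the 7 members were below their control mean, since control replicate 1 was above it for 6 members. The 3 DKD libraries did not order the members alike. Sirt5 was the member furthest below its control mean in DKD replicate 1, at -0.43 on the log2 scale, and stood at -0.17 and -0.08 in DKD replicates 2 and 3. Sirt3 stood at -0.15 in DKD replicate 1, against -0.50 and -0.76 in DKD replicates 2 and 3, where it was the furthest below. Sirt7 was similar in all 3, at -0.27, -0.31 and -0.46. The members together summed to 272.2, 251.6 and 231.1 CPM in DKD replicates 1, 2 and 3, against 328.3, 289.5 and 286.6 CPM in control replicates 1, 2 and 3, without overlap. That sum is mostly Sirt2, Sirt3 and Sirt7, with control means of 70.9, 90.7 and 72.1 CPM. Sirt1, the next highest, had 28.7 CPM, so the sum says little about the other members.

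**Figure D3:**
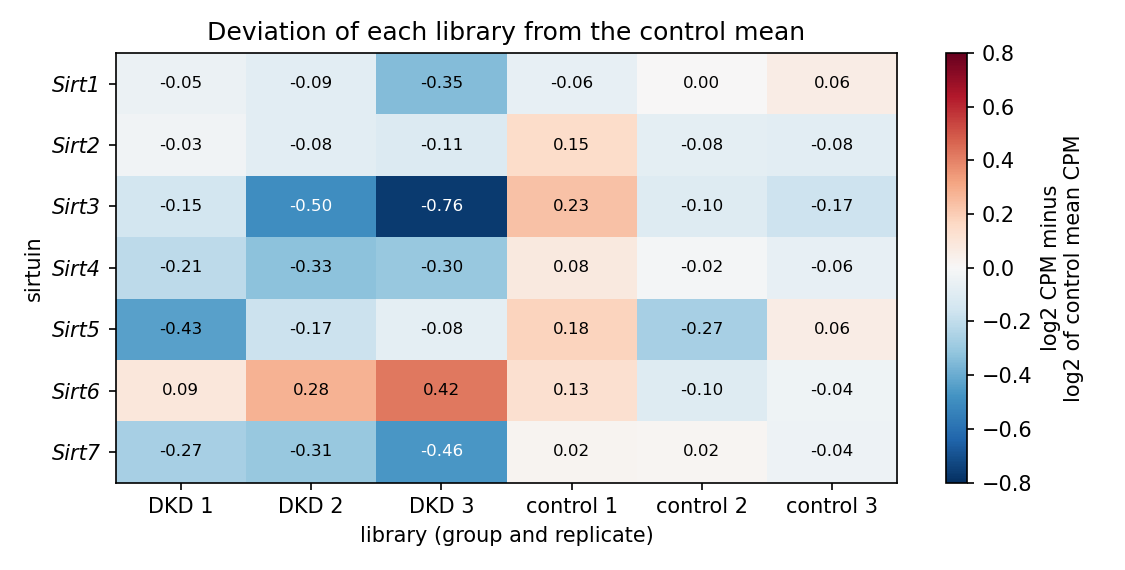
Heat map of the log2 level of each sirtuin in each library minus the log2 of its control mean, with DKD libraries on the left and control libraries on the right. Sirt6 is the row above 0 in all 3 DKD libraries, the lowest cell is Sirt3 in DKD replicate 3 at -0.76, and control replicate 1 is above 0 for every member except Sirt1.

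Levels were compared between members per kilobase of exon, using GENCODE lengths. Sirt2, Sirt3 and Sirt7 led in both groups. Sirt2 had 13.4 ± 0.388 CPM per kilobase in DKD kidneys and 14.1 ± 1.33 in control kidneys (SD, n = 3 each). Sirt3 had 11.1 ± 2.4 CPM per kilobase in DKD kidneys and 15.2 ± 2.33 in control kidneys, and Sirt7 had 11.0 ± 0.776 in DKD kidneys and 14.0 ± 0.312 in control kidneys. The library ranges of these 3 overlapped in control kidneys, so their order there was within the spread, and Sirt3 overlapped both others in DKD kidneys.

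Sirt4 followed with 6.13 ± 0.267 CPM per kilobase in DKD kidneys and 7.44 ± 0.37 in control kidneys, and Sirt1 with 4.83 ± 0.527 in DKD kidneys and 5.38 ± 0.23 in control kidneys; their ranges did not overlap each other in either group. Sirt6 had 2.66 ± 0.302 CPM per kilobase in DKD kidneys and 2.21 ± 0.183 in control kidneys, and Sirt5 had 2.13 ± 0.265 in DKD kidneys and 2.48 ± 0.381 in control kidneys. Sirt5 and Sirt6 stood last in both groups, and their ranges overlapped in control kidneys and met at 2.35 in DKD kidneys. The order depends on the length used: by the longest protein-coding transcript Sirt3 came first, before Sirt7 and Sirt2, in both groups, and Sirt6 came last. In DKD kidneys the library range of Sirt7 by this length, 30.3 to 34.7, overlapped those of Sirt3 and Sirt2. The ranges of Sirt3, 33.3 to 51, and Sirt2, 31.1 to 32.9, did not overlap each other. In control kidneys the ranges were apart, 50.4 to 66.4 for Sirt3, 40.7 to 42.3 for Sirt7 and 31.6 to 37.1 for Sirt2.

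Sirt1, Sirt2, Sirt3 and Sirt7 overlap another gene in the annotation, and whether reads were counted by strand is not given. Reads in a shared stretch could thus be counted for either gene. For Sirt7 and Mafg, which lie on the same strand, counting by strand would not part such reads. Sirt3 overlaps Psmd13, a proteasome subunit, and Ric8a, a chaperone of G protein subunits, both on the opposite strand. Psmd13 had a log2 difference of -0.12 (adjusted p = 0.599, edgeR) and Ric8a of 0.10 (adjusted p = 0.588, edgeR), each nearer to 0 than that of Sirt3. Mafg, a small Maf transcription factor on the same strand as Sirt7, had -0.12 (adjusted p = 0.526, edgeR). Nfkbib, an inhibitor of NF-kappaB opposite Sirt2, had -0.11 (adjusted p = 0.627, edgeR). Gm16145, opposite Sirt1, had no count in any library.

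Cell type markers moved beside the sirtuins. Over all 19197 genes tested, 9138 had a lower and 10059 a higher fitted level. Without overlap between the groups, 11.5% of them were lower and 13.8% higher. Of 14 listed proximal tubule markers, 13 had a lower fitted level in DKD kidneys, 8 without overlap, with a median log2 difference of -0.46. Their summed level was 20370, 15830 and 15720 CPM in DKD replicates 1, 2 and 3, against 25040, 22610 and 22390 CPM in control replicates 1, 2 and 3. All 11 stroma markers and all 10 podocyte markers had a higher fitted level, none past the adjusted threshold and 8 and 9 of them without overlap, with summed levels of 290.0 to 399.2 CPM for stroma and 390.6 to 512.1 CPM for podocytes in DKD kidneys, against 137.5 to 178.9 and 261.1 to 326.7 CPM in control kidneys. The 11 macrophage and myeloid markers summed to 139.8, 251.6 and 312.2 CPM in DKD replicates 1, 2 and 3, against 134.8 to 157.6 CPM in control kidneys.

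Set against the summed proximal tubule markers, Sirt3, Sirt4, Sirt5 and Sirt7 overlapped between the groups, while Sirt1, Sirt2 and Sirt6 were higher in every DKD library than in any control library. Sirt3 had 4.02, 4.05 and 3.40 CPM per 1000 CPM of those markers in DKD replicates 1, 2 and 3, against 4.26, 3.74 and 3.61 in control replicates 1, 2 and 3. Sirt7 had 2.94, 3.69 and 3.33 in the same unit in DKD replicates 1, 2 and 3, against 2.92, 3.23 and 3.14 in control replicates 1, 2 and 3. For Sirt3 the libraries of both groups were interleaved. Sirt7 overlapped only through DKD replicate 1, and its DKD replicates 2 and 3 were above every control library. Sirt4 had 0.758, 0.899 and 0.92 in DKD replicates 1, 2 and 3, against 0.751, 0.78 and 0.762 in control replicates 1, 2 and 3, overlapping only through DKD replicate 1. DKD replicate 1 is also the library with the hepatocyte markers, and the bearing of these on its ratios was not tested. By this ratio Sirt1 had 1.36, 1.71 and 1.43 in DKD replicates 1, 2 and 3, against 1.09, 1.27 and 1.33 in control replicates 1, 2 and 3. Sirt2 had 3.42, 4.23 and 4.19 in DKD libraries in the same order, against 3.14, 2.97 and 2.99 in control libraries, and Sirt6 had 0.322, 0.471 and 0.524, against 0.268, 0.253 and 0.268. The marker sum was itself lower in DKD libraries, which raises every ratio there, and the ratios are given with no test. The part of tissue composition in the sirtuin levels was not tested.

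The genes with the profile closest to Sirt7 over the 6 libraries, by Euclidean distance between centred log2 CPM, were C130074G19Rik (0.0661), the potassium-chloride cotransporter Slc12a7 (0.0665) and the kinase Map2k5 (0.0665), where the median distance over 14661 genes was 0.644. Closest to Sirt3 were the carnitine and organic cation transporter Slc22a4 (0.0508), the selenium-binding protein Selenbp1 (0.113) and the aldehyde reductase Akr7a5 (0.118), with a median of 0.89. Slc22a4 had 65.5, 51.3 and 41.1 CPM in DKD replicates 1, 2 and 3, against 83.9, 67.1 and 63.1 CPM in control replicates 1, 2 and 3, the same order of libraries as Sirt3. Within the family, Sirt4 and Sirt7 were the closest pair at 0.169 and Sirt3 and Sirt6 the farthest apart at 1.13.

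Genes that supply, share or answer to sirtuin activity were followed in 8 lists; none of their members passed the adjusted threshold in edgeR with all 6 libraries. Over all genes tested the median log2 difference was 0.02. At an unadjusted p under 0.05 in edgeR, 7.05% of all genes tested were lower and 12.2% were higher. Of 19 tested genes of NAD synthesis and salvage, 15 had a lower and 4 a higher fitted level, with a median of -0.27. Among those 4, Nmnat2 had only 0 to 34 counts per library and Slc12a8 only 6 to 58. At an unadjusted p under 0.05, 8 of the 19 were lower and 1 was higher. The median was -0.425 without DKD replicate 1 and -0.126 by total counts alone. Nampt, the rate-limiting enzyme of NAD salvage, named for its role, had 165.3, 173.6 and 154.2 CPM in DKD replicates 1, 2 and 3, against 180.9, 215.8 and 198.4 CPM in control replicates 1, 2 and 3. Its DKD libraries were all below its control libraries, and its log2 difference was -0.27 ± 0.106 (SE; adjusted p = 0.23, edgeR).

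The smallest p-values of the NAD synthesis list belonged to Kmo, Naprt and Nmnat1. Kmo, a kynurenine pathway enzyme, had 118.0, 119.2 and 112.7 CPM in DKD replicates 1, 2 and 3, against 177.2, 165.2 and 159.0 CPM in control replicates 1, 2 and 3. The groups were narrow and did not overlap, with a log2 difference of -0.52 (adjusted p = 0.103, edgeR). Naprt, which starts NAD synthesis from nicotinic acid, had -0.48 (adjusted p = 0.136, edgeR) and Nmnat1, the nuclear adenylyltransferase, -0.43 (adjusted p = 0.166, edgeR). Without DKD replicate 1, 8 genes of this list were lower past the adjusted threshold and none was higher. In that fit 5.84% of all genes tested were lower and 9.67% were higher. Kmo (adjusted p = 0.0149, edgeR) and Naprt (adjusted p = 0.031, edgeR) were among the 8, and Nampt and Nmnat1 were not. The 8 also held Acmsd (adjusted p = 0.00374, edgeR) and Nadk (adjusted p = 0.0148, edgeR). Acmsd draws an intermediate away from NAD synthesis and Nadk turns NAD into NADP, so the list's counts are not of NAD-making genes alone.

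Tdo2, a liver enzyme of tryptophan breakdown, is the gene of this list that was higher at an unadjusted p under 0.05. It had 36.9 CPM in DKD replicate 1, the library with the hepatocyte markers, and 0.286 CPM or less in the other 5. Nnt, which links NADH and NADPH in mitochondria, was left out of the counts because its reads fell on 2 Ensembl IDs in a pattern that does not follow the groups. One ID had 0, 8936 and 10500 counts in DKD replicates 1, 2 and 3, against 9501, 0 and 0 in control replicates 1, 2 and 3; the other had 17778, 1315 and 418, against 994, 14999 and 17101. The libraries thus fell into 3 with counts on the first ID and 3 without, across groups. In the fit without DKD replicate 1, all DKD libraries had counts on the first ID, and of the control libraries only control replicate 1 did. The bearing of this on the sirtuins was not tested.

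Of the 14 genes listed as other NAD consumers, 12 had a higher and 2 a lower fitted level in DKD kidneys, with a median of 0.375; 5 were higher and 1 lower at an unadjusted p under 0.05. Nnmt, which does not consume NAD+ but methylates the nicotinamide that NAD+ consumers release, had 1.43, 1.93 and 1.98 CPM in DKD replicates 1, 2 and 3, against 0.757, 0.409 and 0.31 CPM in control replicates 1, 2 and 3. Its log2 difference was 1.86 (adjusted p = 0.114, edgeR), at a low level in both groups. Bst1, a cell surface NAD glycohydrolase of stromal and myeloid cells, had 1.01 (adjusted p = 0.14, edgeR) and Parp2, a DNA repair polymerase, 0.42 (adjusted p = 0.182, edgeR). The consumer that was lower at an unadjusted p under 0.05 was Parp3, at -0.31. Parp1, the main nuclear poly(ADP-ribose) polymerase, named for its role, had 0.07 (adjusted p = 0.727, edgeR). Without DKD replicate 1, 4 genes of the list were higher past the adjusted threshold, Nnmt, Bst1 and the interferon-inducible Parp9 and Parp14, and none was lower. In that fit 9.67% of all genes tested were higher and 5.84% were lower.

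The 24 tested mitochondrial substrates of sirtuins included 21 with a lower and 3 with a higher fitted level, with a median of -0.20, or -0.0439 when libraries were scaled by total counts alone; 7 were lower and 1 was higher at an unadjusted p under 0.05. Shmt2, the mitochondrial serine hydroxymethyltransferase, had 259.1, 198.4 and 171.2 CPM in DKD replicates 1, 2 and 3, against 339.7, 316.5 and 283.6 CPM in control replicates 1, 2 and 3, a log2 difference of -0.58 (adjusted p = 0.156, edgeR). Idh2, the mitochondrial NADP-dependent isocitrate dehydrogenase, had -0.43 (adjusted p = 0.163, edgeR) and Acss1, the mitochondrial acetyl-CoA synthetase, 0.35 (adjusted p = 0.158, edgeR). Sod2, the superoxide dismutase that SIRT3 deacetylates, named for its role, had -0.28 (adjusted p = 0.32, edgeR). Without DKD replicate 1, 7 substrates were lower past the adjusted threshold, Shmt2 (adjusted p = 0.00962, edgeR) and Idh2 (adjusted p = 0.0149, edgeR) among them, and none was higher. Of all genes tested in that fit, 5.84% were lower and 9.67% were higher.

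Nuclear and cytosolic substrates had no common direction, with 17 of 32 higher, 15 lower and a median of 0.02. At an unadjusted p under 0.05, 4 were higher (Foxo3, Trp53, Hif1a and Nos3) and 3 lower (Nr1h4, Acss2 and Polr1e). These counts were near the share of all genes tested, 12.2% higher and 7.05% lower by that rule. Nr1h4, the bile acid receptor that SIRT1 deacetylates, had 113.8, 127.5 and 109.6 CPM in DKD replicates 1, 2 and 3, against 181.1, 219.8 and 178.5 CPM in control replicates 1, 2 and 3, with a log2 difference of -0.72 (adjusted p = 0.103, edgeR). Nos3, the endothelial nitric oxide synthase, had 6.57, 9.98 and 11.0 CPM in DKD replicates 1, 2 and 3, against 4.17, 3.27 and 3.71 CPM in control replicates 1, 2 and 3, with a log2 difference of 1.31 (adjusted p = 0.103, edgeR). In both genes the groups did not overlap. Both passed without DKD replicate 1, Nr1h4 with an adjusted p of 0.0154 and Nos3 with 0.00449 in edgeR, among 2 lower and 6 higher in that list. Acss2, the cytosolic acetyl-CoA synthetase, was the other gene lower there. Of all genes tested in that fit, 5.84% were lower and 9.67% were higher.

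The list labelled regulators of SIRT1 protein also holds regulators of the Sirt1 gene, E2f1, Foxo3 and Ctbp1 among them. Its 12 genes had a median of 0.09, 7 higher and 5 lower, with 2 higher and 1 lower at an unadjusted p under 0.05. By that rule 12.2% of all genes tested were higher and 7.05% lower. E2f1, a cell cycle factor, had a log2 difference of 1.06 (adjusted p = 0.148, edgeR), Foxo3, a forkhead factor that is also on the substrate list, 0.39 (adjusted p = 0.165, edgeR), and Ctbp1, a corepressor, -0.24 (adjusted p = 0.235, edgeR). None of this list passed without DKD replicate 1. The 12 glycolytic genes repressed by SIRT6 had a median of -0.08, 5 higher and 7 lower, with 2 in each direction at an unadjusted p under 0.05. Pdk1, the kinase that shuts off pyruvate dehydrogenase, had 44.0, 49.3 and 47.9 CPM in DKD replicates 1, 2 and 3, against 31.0, 29.9 and 25.3 CPM in control replicates 1, 2 and 3, with a log2 difference of 0.71 (adjusted p = 0.103, edgeR). Tpi1 and Ldhb, enzymes of triose phosphate and lactate conversion, had -0.49 (adjusted p = 0.185, edgeR) and -0.29 (adjusted p = 0.215, edgeR). Pdk4, a kinase of the same family as Pdk1, was the other gene higher at an unadjusted p under 0.05, at 2.20 ± 0.885 (SE; adjusted p = 0.259, edgeR). It had 9.01, 34.0 and 106.0 CPM in DKD replicates 1, 2 and 3, against 15.15, 7.88 and 9.395 CPM in control replicates 1, 2 and 3. The groups overlapped, with DKD replicate 1 below control replicates 1 and 3. Without DKD replicate 1, Tpi1 was lower and Pdk1 and Pdk4 were higher past the adjusted threshold. In that fit 5.84% of all genes tested were lower and 9.67% were higher.

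The zinc-dependent deacetylases, which share substrates with sirtuins and need no NAD+, were split, 6 of 11 higher and 5 lower with a median of 0.01. At an unadjusted p under 0.05, 2 were higher and none was lower: Hdac9, with a log2 difference of 1.29 (adjusted p = 0.14, edgeR), and Hdac7, with 0.60 (adjusted p = 0.158, edgeR). Hdac11, next by p-value, had 0.21 (adjusted p = 0.46, edgeR). Hdac7 alone of the list passed without DKD replicate 1 (adjusted p = 0.00886, edgeR). It was higher, and 1 of 11 is near the 9.67% of all genes tested that were higher in that fit. Of 14 histone acetyltransferases, which add the marks that sirtuins remove, 6 were higher and 8 lower with a median of -0.02. Only the coactivator Ncoa3 was lower at an unadjusted p under 0.05, at -0.32 (adjusted p = 0.182, edgeR), and none was higher. That is 1 of 14, near the 7.05% of all genes tested that were lower by that rule. Kat2b had -0.28 (adjusted p = 0.271, edgeR) and Kat8 -0.22 (adjusted p = 0.439, edgeR). Without DKD replicate 1, the acetyltransferase Naa60 was lower past the adjusted threshold (log2 difference -0.36, adjusted p = 0.0417, edgeR) and none was higher. That count of 1 in 14 is near the 5.84% of all genes tested that were lower in that fit.

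**Figure D4:**
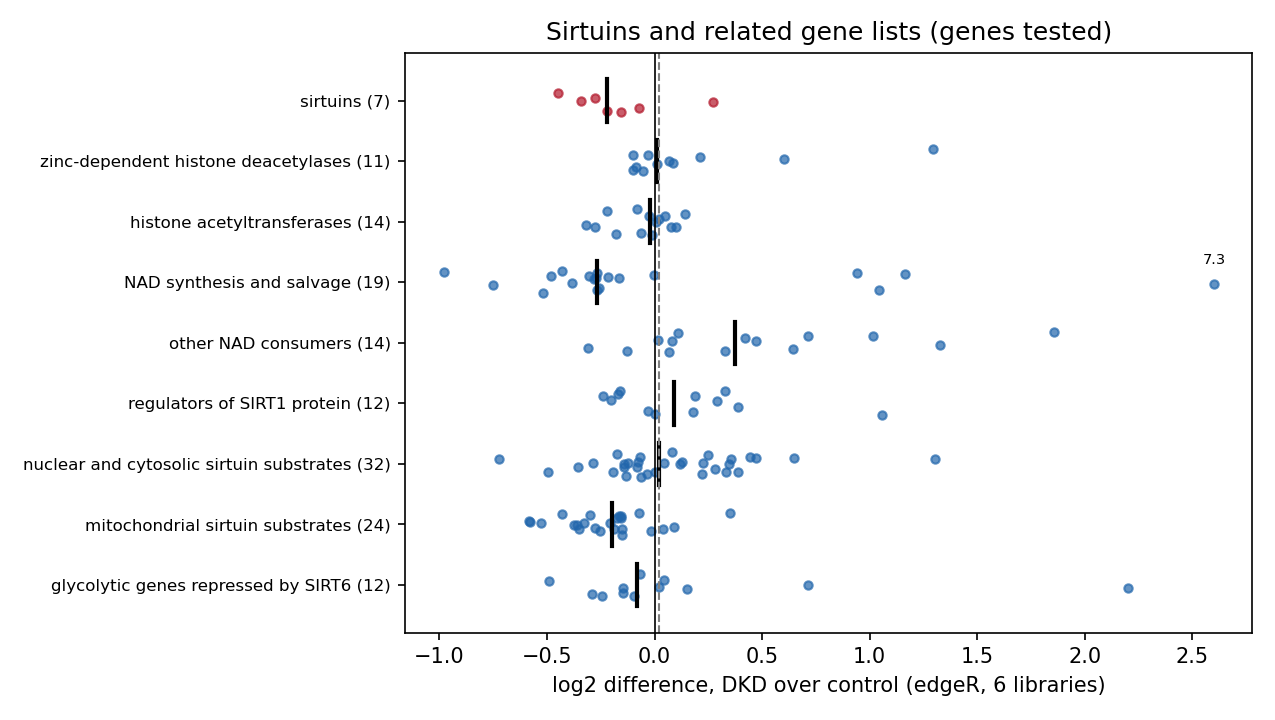
Log2 difference, DKD over control, of each tested gene (points) in the sirtuin family and the 8 related lists; the black tick is the list's median and the dashed line the median of all genes tested, 0.02. The point beyond the axis, Tdo2, is drawn at its edge with its value. NAD synthesis and mitochondrial substrates have medians of -0.27 and -0.20, and other NAD consumers 0.375.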

How the data were processed

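Poly(A)-selected, strand-marked libraries of 6 whole-kidney samples were sequenced, per the labels' protocols. The authors deposited raw read counts per Ensembl gene, and fastp, HISAT2, StringTie and edgeR with GRCm39 stand in the submitters' processing notes; their versions and the strand setting were not stated there. The members and lists were chosen with earlier results of these data known. Counts were analysed in R 4.3.3 with edgeR 4.0.16 (TMM factors, filterByExpr, robust quasi-likelihood test, Benjamini-Hochberg over all genes, two-sided, threshold 0.05). Symbols, lengths, overlaps and promoters came from GENCODE and RefSeq tables of GRCm38, matched by gene ID or symbol, and 55141 IDs had a symbol; no count was placed by those coordinates. CPM uses TMM-scaled totals. Named were all sirtuins, the 3 genes of each list with the smallest p, and the 3 genes nearest in profile to Sirt7 and Sirt3, among genes with a mean of at least 1 CPM; other genes of the lists were named for their role, where so stated, or after their values were seen, as members of small counts. A gene of the mitochondrial substrate list is not reported here and was left out of its counts. Alternatives were DESeq2 1.42.0, limma 3.58.1, other scalings and filters, a replicate block and leaving out each library.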

Additional observations from a re-analysis of the deposited data

How the results depend on the processing

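All sirtuins but Sirt2 kept their direction in all 19 alternatives, 13 planned and 6 added after the data were seen (the weighted fit without each library); Sirt2 kept it in 17, with 0.0814 by total counts alone and 0.0072 without control replicate 1. Scaling by total counts alone raised the median of all genes by 0.152 and gave -0.0095 for Sirt1, -0.30 for Sirt3, -0.13 for Sirt4, -0.06 for Sirt5, 0.43 for Sirt6 and -0.19 for Sirt7, none called. The same scaling turned the median of the glycolytic genes to 0.0751 and that of the acetyltransferases to 0.129; over all alternatives the median ranged from -0.425 to -0.126 for NAD synthesis, 0.191 to 0.53 for other NAD consumers and -0.277 to -0.0439 for mitochondrial substrates. The number of genes called was 0 with edgeR, 4 without a filter, 1581 with DESeq2 and 3401 with limma-voom and quality weights, and 0 to 4877 when single libraries were left out, with 3101 in edgeR without DKD replicate 1 and 2012 in the weighted fit without control replicate 1. The weighted fit called 2 sirtuins, Sirt3 at -0.48 and Sirt7 at -0.35; with single libraries left out, 0 to 2 were called, and without DKD replicate 1 the weighted fit gave Sirt3 -0.56. In edgeR with single libraries left out the lowest and highest were -0.11 and 0.0072 for Sirt2, -0.63 and -0.31 for Sirt3 and -0.39 and -0.29 for Sirt7. Over those fits and the weighted ones the log2 difference ranged from -0.25 to -0.07 for Sirt1, -0.13 to 0.0072 for Sirt2, -0.63 to -0.25 for Sirt3, -0.34 to -0.23 for Sirt4, -0.34 to -0.05 for Sirt5, 0.19 to 0.39 for Sirt6 and -0.39 to -0.28 for Sirt7. The cause of these shifts was not tested. Deviations of same-numbered libraries correlated at 0.0227 to 0.0344, so the numbers were not taken to pair them; with a replicate block the adjusted p (edgeR) was 0.152 for Sirt7 and 0.14 for Sirt3, and 0 genes were called.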
